A study of Drosophila melanogaster with 9 samples.

Results

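The genes described here control the shape, movement and removal of mitochondria in the larval ring gland of Drosophila melanogaster. They were chosen by name, as the 10 rows of the deposited table called Marf, Opa1, Drp1, Fis1, Miro, Pink1, park, CG5059, CG3016 and Phb2, out of 14409 genes in all. The choice was made with earlier results of these data known. The current symbols of CG5059 and CG3016 are BNIP3 and Usp30. Ring glands of w1118 larvae were sequenced in 9 libraries, 3 from feeding larvae, 3 from larvae that were starved ahead of the nutrient restriction checkpoint (NRC), here called pre-NRC starvation, and 3 from larvae starved once it had passed, called post-NRC starvation. Each library was a pool of about 1200 dissected glands, and the pools of a treatment are labelled biological replicates. The columns taken as feeding are headed as wild type with a time of 108 hours whose start is not stated. The age of the starved larvae and how long they were starved are not stated in the sources used here, so larval age and starvation cannot be told apart.

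Mitochondria fuse and divide all the time. Outer membranes are joined by mitofusins and inner membranes by Opa1, while Drp1 is recruited from the cytosol to constrict and split the organelle. Damaged mitochondria are removed by mitophagy, in which the kinase Pink1 builds up on the outer membrane and activates the ubiquitin ligase parkin, deubiquitinases take the ubiquitin off again, and receptors such as BNIP3 tie the organelle to the autophagy membrane. In the prothoracic gland, the part of the ring gland that makes the moulting hormone ecdysone, several steps of hormone synthesis take place inside mitochondria.

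Libraries held 29123939 to 36131089 counts. The 5 prothoracic gland markers fixed for this report summed to 10500 to 16100 FPKM (a level scaled for gene length and sequencing depth) in feeding libraries, 1500 to 5280 under pre-NRC starvation and 6690 to 10600 under post-NRC starvation. They were detected in every library, and all 5 fell in pre-NRC starvation against feeding. The libraries also carried RNA of other tissues in unequal amounts. The 5 muscle markers summed to 1910 to 2170 FPKM in feeding, 3050 to 3390 under pre-NRC starvation and 666 to 1390 under post-NRC starvation, and 2 of them rose in pre-NRC starvation. The 5 haemocyte markers summed to 57.9 to 129, 159 to 527 and 106 to 180 FPKM in the same order, with 2 rises, and the 5 digestive tract markers to 50.9 to 467, 1480 to 11800 and 801 to 2960, with 4 rises. Nearly all of the digestive tract sum was Jon65Aiv, which was highest in replicate 3 in feeding (441 FPKM against 47.7 and 49.8) and in pre-NRC starvation (11600 against 1670 and 1370), while Amy-p in feeding was lowest there. No defining marker of these tissues was at 3 counts or fewer in all libraries. In such bulk samples fewer cells of a type and less RNA per cell cannot be told apart, and the part of other tissues in the results that follow was not tested.

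Levels per gene length spread over a wide range. In feeding glands Phb2 was highest at 171 ± 9.62 FPKM (mean ± SD, n = 3), followed by Fis1 at 82.4 ± 1.66 FPKM, and the ranges of these neighbours did not overlap with each other or with the gene next below. Opa1 (46.1 ± 1.47 FPKM), CG3016 (43.2 ± 6.94), Pink1 (41.3 ± 6.69) and CG5059 (40.3 ± 18.7) formed a middle tier in which each range overlapped with the next. Drp1 (33.2 ± 1.23 FPKM), Marf (30.7 ± 0.212), Miro (18.3 ± 0.695) and park (6.07 ± 1.09) followed, and from Drp1 downwards no range overlapped with the next.

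That order changed in starved glands. In pre-NRC starvation CG5059 was highest at 109 ± 27.5 FPKM, ahead of Phb2 at 89.5 ± 5.77 and Pink1 at 83.2 ± 19.7, with overlapping ranges among these neighbours. Drp1 stood at 22.6 ± 4.42 FPKM, next to CG3016 at 22.9 ± 3.04, and only park was lower at 7.26 ± 1.72. In post-NRC starvation Phb2 led again at 112 ± 11.3 FPKM, with Fis1 at 83.5 ± 15.7 and CG5059 at 70.2 ± 8.51. The parkin gene was lowest in all 3 groups.

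**Figure D1:**
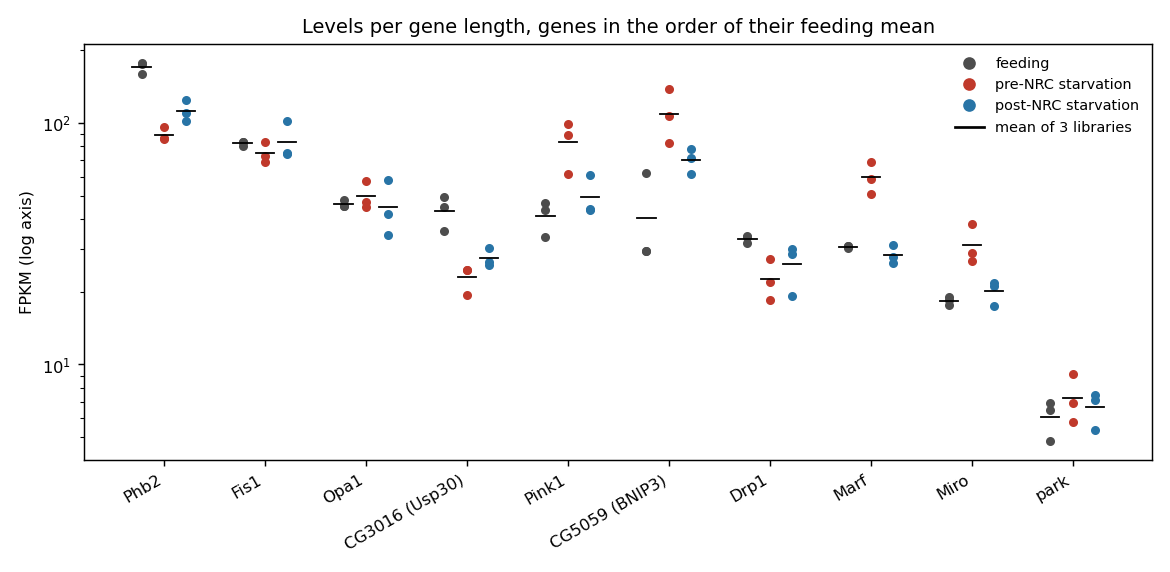
Levels of the 10 genes in FPKM on a log axis, with genes in the order of their feeding mean; each point is 1 library and each bar the mean of 3 libraries. Phb2 fell from 171 to 89.5 FPKM between feeding and pre-NRC starvation, and CG5059 went from 40.3 to 109 FPKM.

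The first comparison asks how these genes stood in glands of larvae starved before the checkpoint, against glands of feeding larvae. Transcripts of 4 of the 10 genes rose (Marf, Miro, Pink1 and CG5059) and those of 2 fell (CG3016 and Phb2) in edgeR's quasi-likelihood test with Benjamini-Hochberg adjustment over the 10883 genes that passed the filter on low counts. Over all genes tested 16.1% were called higher and 11.5% lower, or 27.5% in either direction. The 10 genes were chosen with earlier results of these data known, so their share beside these is a description and not a test. The median log2 change of the 10 genes was 0.24, against 0.0013 for all genes. The groups did not overlap in 7 of the 10 genes, these 6 and Drp1, and in 48.4% of all genes tested. The count of 6 calls was 3 without feeding replicate 2, and between 4 and 7 without any other single library. All 10 genes passed the filter on low counts.

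Marf, the mitofusin of the outer membrane, had 139, 136 and 132.5 CPM (counts scaled to the library's size) in feeding replicates 1, 2 and 3. It had 259, 303.5 and 242 CPM in pre-NRC starvation. Every pre-NRC library lay above every feeding library, and the feeding libraries were close together. The fitted log2 change was 0.98 (SE 0.17, adjusted p = 0.00557 in edgeR), a 1.97-fold rise, and it passed without each of the 9 libraries in turn. The summed muscle markers were also higher in each of these libraries, at 3390, 3060 and 3050 FPKM, than in any feeding library, although Mhc in replicate 3 and Act57B in replicate 2 were not above all of their own feeding values. Their part in the rise was not tested. Opa1, the GTPase that fuses inner membranes and shapes cristae, had 201, 186 and 181 CPM in feeding and 225, 240.3 and 170 CPM in pre-NRC starvation. Its groups overlapped and its change did not pass (log2 change 0.16, SE 0.20, adjusted p = 0.575).

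Drp1, the dynamin-related GTPase of division, had 116, 107 and 109 CPM in feeding and 71.1, 72.9 and 83.0 CPM in pre-NRC starvation. All 3 starved libraries lay below all feeding libraries. Its log2 change of −0.55 (SE 0.18) missed the threshold in edgeR with an adjusted p of 0.0528, and passed with the replicate number as a block (−0.55, SE 0.15, adjusted p = 0.0309 in edgeR). It also passed in DESeq2 (adjusted p = 0.0473), with only the 2 groups compared (0.044), without pre-NRC replicate 3 (0.0483) and without post-NRC replicate 2 (0.0433). Fis1, an outer membrane protein with tetratricopeptide repeats that binds the fission machinery in yeast, had 73.8, 71.9 and 69.6 CPM in feeding. It had 88.7, 59.7 and 56.4 CPM in pre-NRC starvation, with 1 library above and 2 below the feeding range, and did not pass (−0.07, SE 0.24, adjusted p = 0.847).

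Miro, the GTPase that couples the outer membrane to motor proteins and is a target of Pink1 and parkin, had 67.6, 65.6 and 59.4 CPM in feeding. In pre-NRC starvation it had 109, 136 and 94.4 CPM, all above the feeding range. The rise of 0.82 on the log2 scale (SE 0.18, adjusted p = 0.0148 in edgeR) was lost without feeding replicate 1 (adjusted p = 0.0562), feeding replicate 2 (0.0605) and pre-NRC replicate 2 (0.0578), and with the counts of feeding replicates 1 and 2 summed into 1 library (0.0625).

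**Figure D2:**
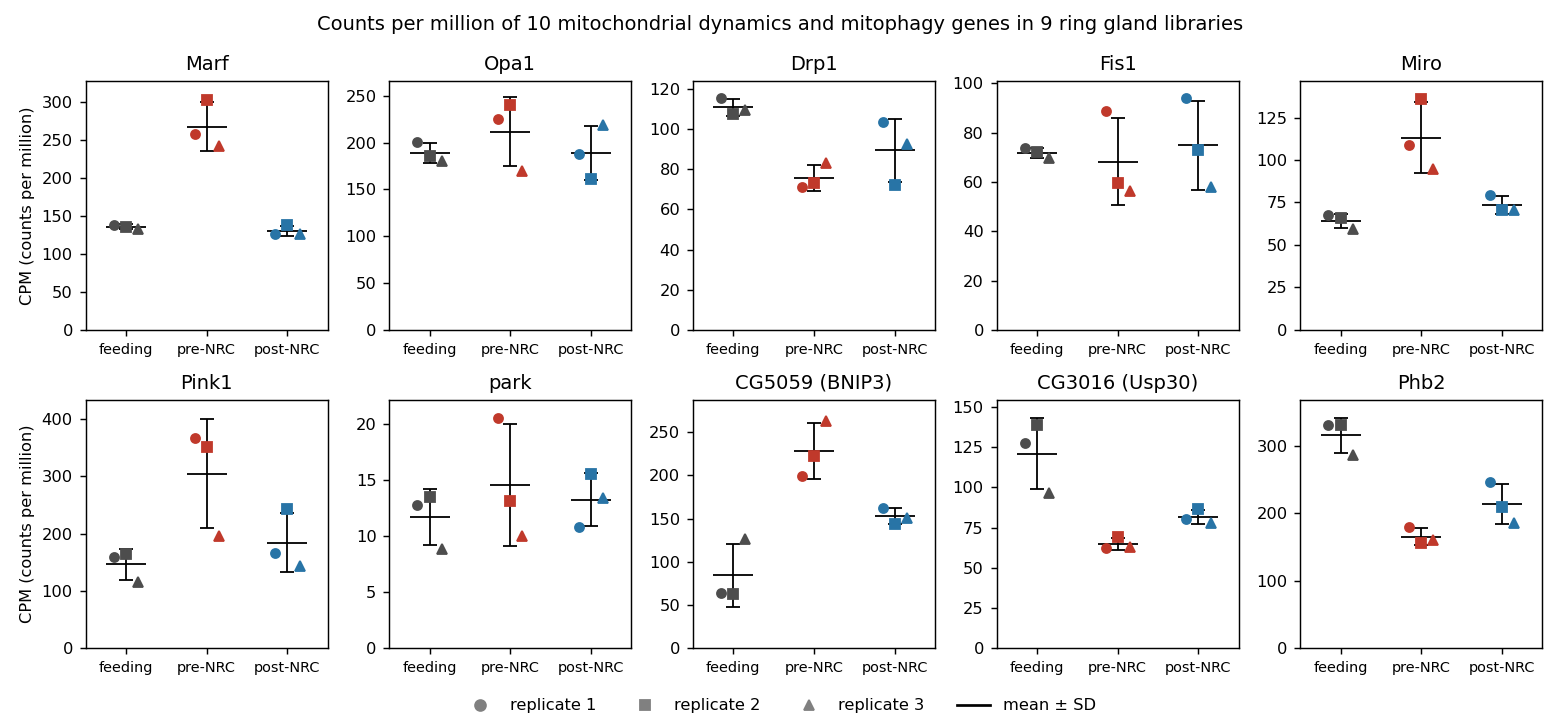
CPM of each gene in each library, with the group mean and SD in black; marker shapes give the replicate number. Marf in pre-NRC starvation (242 to 303.5 CPM) lies apart from feeding (132.5 to 139 CPM) and post-NRC starvation (126 to 138 CPM), whose ranges overlap.

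The kinase Pink1 had 159, 165 and 116 CPM in feeding and 367, 350.2 and 195 CPM in pre-NRC starvation. The groups did not overlap, although replicate 3 was the lowest library in each of them. The fitted rise was 1.05 on the log2 scale (SE 0.31, adjusted p = 0.0345 in edgeR), or 2.07-fold. It was lost without any 1 of the feeding libraries (adjusted p of 0.0844 to 0.0936), pre-NRC replicates 1 and 2 (0.105 and 0.109) or post-NRC replicate 1 (0.0511), and with feeding replicates 1 and 2 summed (0.0943), while replicates 1 and 2 alone, a setting chosen after seeing the data, gave 1.13 (SE 0.20, adjusted p = 0.00905). Of the 5 haemocyte markers, Hml made up most of the sum and was lowest in pre-NRC replicate 3, at 408, 458 and 86.3 FPKM in replicates 1, 2 and 3, while Pxn and eater were highest there. In feeding the sum was highest in replicate 3 (129 FPKM against 58.8 and 57.9), where Pink1 was lowest. Their part in the rise was not tested. The ligase gene park, whose product Pink1 activates, had 12.7, 13.5 and 8.85 CPM in feeding and 20.5, 13.1 and 9.97 CPM in pre-NRC starvation. These ranges overlapped, and park did not pass (0.32, SE 0.32, adjusted p = 0.492).

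The gene CG5059 carries a BNIP3 domain in the authors' annotation, and BNIP3 is a receptor that recruits the autophagy membrane to mitochondria in mammals. It had 63.7, 63.4 and 127 CPM in feeding and 199.5, 223 and 263 CPM in pre-NRC starvation. All starved libraries were above all feeding libraries, and feeding replicate 3 lay well above feeding replicates 1 and 2. Its rise of 1.43 (SE 0.29, adjusted p = 0.0102 in edgeR), 2.7-fold, was the largest among the 10 genes in this comparison and passed without each of the 9 libraries, with 1.83 when feeding replicate 3 was left out.

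Among the falling genes, CG3016 encodes the homologue of Usp30, the deubiquitinase that removes parkin's ubiquitin from the outer membrane. It had 128, 139 and 96.3 CPM in feeding and 62.4, 68.9 and 62.9 CPM in pre-NRC starvation. The starved libraries were tightly grouped below the feeding range, and the log2 change was −0.90 (SE 0.18, adjusted p = 0.0103 in edgeR, and 0.0507 without feeding replicate 2). Phb2, a prohibitin that forms a ring-shaped scaffold of the inner membrane with its partner Phb1, had 330.4, 330 and 285.5 CPM in feeding. It had 179, 156 and 160.3 CPM in pre-NRC starvation, with no overlap between groups. The log2 change of −0.93 (SE 0.18, adjusted p = 0.00886 in edgeR) passed without each of the 9 libraries. The 5 prothoracic gland markers and 2 of the 5 salivary gland markers fell in the same comparison, and their part in these falls was not tested. The BNIP3 gene was thus called higher in pre-NRC starvation, the Usp30 gene lower, and the ligase gene gave no call. Pink1 was called higher in the reported fit, and in 3 of 9 fits that left out 1 library.

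**Figure D3:**
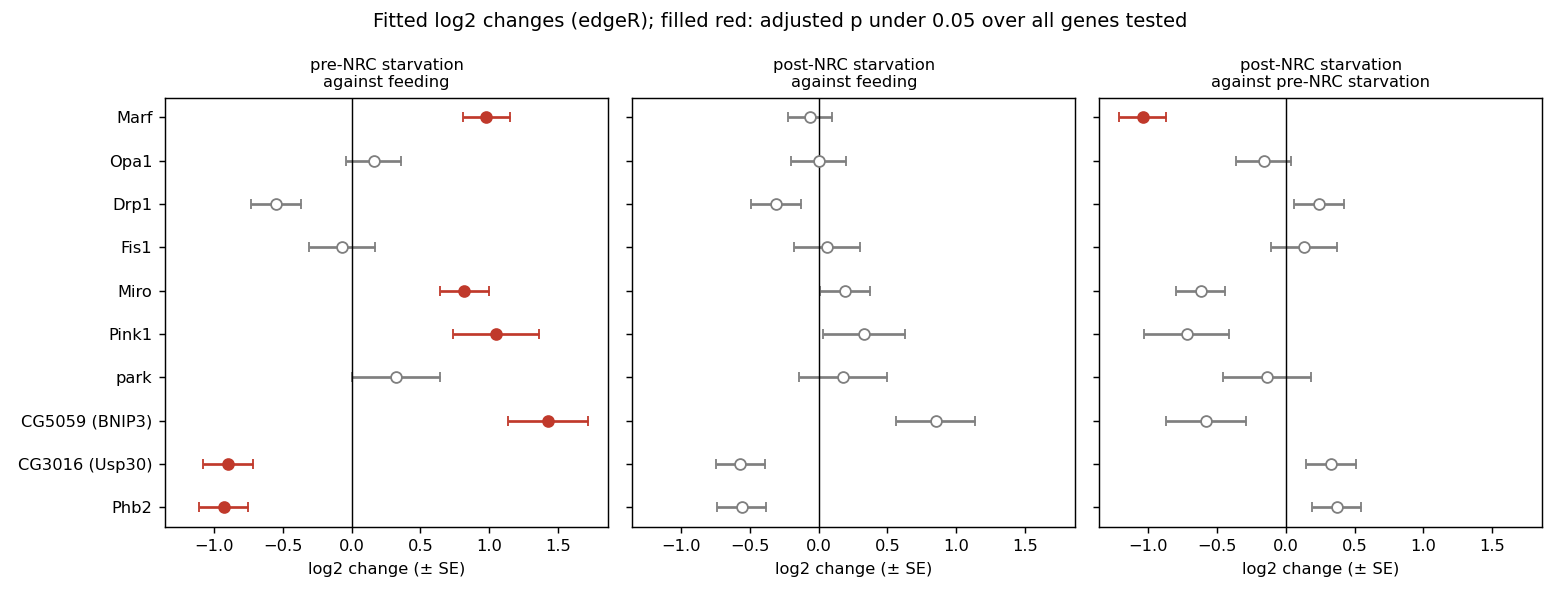
Fitted log2 changes with their SE in the 3 comparisons; filled red points passed an adjusted p of 0.05 over all genes tested in edgeR. In pre-NRC starvation against feeding 6 of 10 genes passed, in post-NRC starvation against feeding 0, and in post-NRC against pre-NRC starvation Marf alone, at −1.04.

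The comparison of post-NRC starvation with feeding asks the same after the checkpoint. In edgeR 0 of the 10 genes passed, against 0.809% of all genes tested, with 0.634% called higher and 0.175% lower. At an unadjusted p under 0.05 there were 3 of them (CG5059, CG3016 and Phb2), against 14.8% of all genes. DESeq2 called 2 (CG3016 and Phb2), against 6.83% of all genes, and limma-voom 0. Marf had 127, 138 and 126 CPM, within or just below its feeding values (log2 change −0.06, SE 0.16, adjusted p = 0.914). The summed muscle markers were 666, 1390 and 1110 FPKM in these libraries, against 1910 to 2170 in feeding, although Tm2 in post-NRC replicate 2 (349 FPKM) was above its feeding values (279 to 298). Their part in the level of Marf was not tested. Opa1 had 187, 161 and 218 CPM (log2 change close to 0, SE 0.20, adjusted p = 0.999).

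For CG5059 the post-NRC libraries held 163, 144 and 151 CPM, all above the feeding libraries. The log2 change was 0.85 (SE 0.29, adjusted p = 0.209 in edgeR), and 1.25 without feeding replicate 3 (SE 0.20, adjusted p = 0.0343). CG3016 had 80.1, 86.3 and 77.9 CPM, below all feeding libraries (−0.57, SE 0.18, adjusted p = 0.193). Phb2 had 245.5, 209 and 186 CPM, also below (−0.56, SE 0.18, adjusted p = 0.194). In CPM the groups of this comparison did not overlap in 5 of the 10 genes, against 23.3% of all genes tested, namely these 3 with Miro and Drp1. In FPKM they did not overlap in 3 (Drp1, CG3016 and Phb2), against 23.0% of all genes. The CPM of CG5059, CG3016 and Phb2 in post-NRC libraries lay between the feeding and the pre-NRC libraries without overlap. Miro had 79.5, 70.5 and 70.3 CPM and was placed likewise (0.19, SE 0.18, adjusted p = 0.7). The same order without overlap held for 6.44% of all genes tested. In FPKM it held for CG3016 and Phb2 but not for CG5059 and Miro, and for 6.21% of all genes.

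The other members varied within the post-NRC group. Pink1 had 166, 243 and 144 CPM, overlapping with feeding (0.33, SE 0.30, adjusted p = 0.69). Drp1 had 103, 72.1 and 92.5 CPM, all below feeding (−0.31, SE 0.18, adjusted p = 0.49). Fis1 had 93.9, 72.8 and 57.9 CPM, around the feeding range (0.06, SE 0.24, adjusted p = 0.943). park had 10.8, 15.5 and 13.4 CPM (0.18, SE 0.32, adjusted p = 0.855). A change missing the threshold here does not show that these levels were equal.

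Post-NRC starvation was also set directly against pre-NRC starvation, a comparison in which the shared feeding libraries cancel. Neither starved group has feeding libraries stated to match it in age, so larval age and the response to starvation cannot be told apart here. Marf alone of the 10 genes passed in edgeR, with 130.5 ± 6.87 CPM in post-NRC against 268 ± 31.9 in pre-NRC starvation (n = 3 each). Its log2 change was −1.04 (SE 0.17, adjusted p = 0.0291, edgeR), against a background of 3.29% of all genes called lower, 1.9% higher and 5.19% in either direction. The starved groups did not overlap in 5 of the 10 genes (Marf, Miro, CG5059, CG3016 and Phb2) and in 29.4% of all genes tested. The call held without replicate 3 of any group and was lost without any 1 of the other 6 libraries (adjusted p of 0.0602 to 0.127), where the change stayed between −1.08 and −0.94. It was also lost with only the 6 starved libraries (0.0807) and with feeding replicates 1 and 2 summed (0.0606). The muscle markers differed in the same direction between these groups. Next in size were Pink1 (−0.72, SE 0.31, adjusted p = 0.172), Miro (−0.62, SE 0.18, adjusted p = 0.0766) and CG5059 (−0.58, SE 0.29, adjusted p = 0.226). Phb2 (0.37, SE 0.18, adjusted p = 0.222), CG3016 (0.33, SE 0.18, adjusted p = 0.276) and Drp1 (0.24, SE 0.18, adjusted p = 0.429) were higher in post-NRC starvation by amounts that did not pass. With replicates 1 and 2 alone, a setting chosen after seeing the data, 4 genes were called lower in post-NRC starvation (Marf, Miro, Pink1 and CG5059), against 12.6% of all genes tested in that setting.

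Ratios between genes of 1 library do not depend on how libraries are scaled, and are given as a description with no test. The FPKM ratio of Marf to Drp1, an outer membrane fusion gene over the main fission gene, was 0.908, 0.959 and 0.912 in feeding replicates 1, 2 and 3. In pre-NRC starvation it was 2.75, 3.15 and 2.15, far above the feeding values. In post-NRC starvation it was 0.923, 1.44 and 1.03, with replicate 1 inside the feeding range and replicate 2 highest, where Drp1 was lowest. The ratio of Opa1 to Drp1 was 1.41, 1.42 and 1.34 in feeding, 2.53, 2.64 and 1.65 under pre-NRC starvation and 1.47, 1.79 and 1.93 under post-NRC starvation. Every starved library was thus above every feeding library in this ratio, although the CPM of Opa1 itself overlapped between feeding and each starved group. The mean log2 ratio of Opa1 to Drp1 was above feeding by 0.677 in pre-NRC starvation, against 1.516 for Marf to Drp1, and by 0.305 in post-NRC starvation, against 0.261.

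The ratio of Pink1 to park was 6.74, 6.75 and 7.0 in feeding, almost the same in 3 libraries although both genes were lower in replicate 3. It was 9.78, 14.4 and 10.6 under pre-NRC starvation and 8.14, 8.53 and 5.86 under post-NRC starvation. Phb2 and its partner l(2)37Cc, the Phb1 gene, kept a ratio of 0.84 to 0.971 in feeding, 0.868 to 0.999 under pre-NRC starvation and 0.737 to 0.994 under post-NRC starvation, so that the ranges of this ratio overlapped between all groups.

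**Figure D4:**
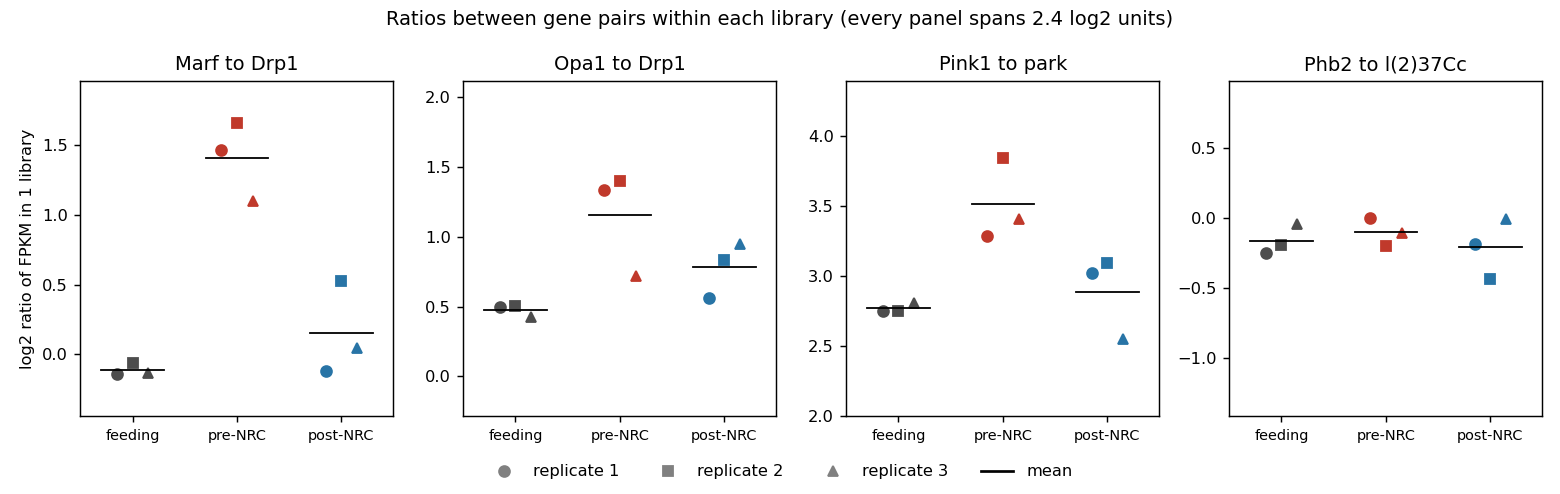
log2 FPKM ratios of 4 gene pairs in each library, with the group mean as a bar and the same span of 2.4 log2 units in every panel. The ratio of Marf to Drp1 was between 1.10 and 1.66 in pre-NRC starvation and between −0.14 and −0.06 in feeding, whereas the ratio of Phb2 to l(2)37Cc overlapped in all groups.

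The other genes of mitochondrial dynamics and quality control were taken from a list of 35 that includes the members, of which 34 passed the filter on low counts. Besides the members, 24 were tested in pre-NRC starvation against feeding, with 0 higher and 3 lower in edgeR and a median log2 change of −0.30. The share of 3 in 24 is near the 11.5% of all genes called lower, and that of 0 is under the 16.1% called higher. The 3 were Khc, the kinesin heavy chain that carries Miro-bound mitochondria (−0.63, SE 0.18, adjusted p = 0.0351), CG5384, the homologue of the proteasomal deubiquitinase Usp14 (−1.29, SE 0.34, adjusted p = 0.0253), and l(2)37Cc (−0.98, SE 0.22, adjusted p = 0.014). l(2)37Cc had 315 ± 47.8 CPM in feeding and 159 ± 4.67 in pre-NRC starvation, close to the values of Phb2. The calls of Khc, CG5384 and l(2)37Cc held in 4, 4 and 7 of 9 fits that left out 1 library. All 3 were lost with feeding replicates 1 and 2 summed (adjusted p = 0.0823, 0.0609 and 0.0547), and that of Khc with RLE (0.0587) and upper-quartile factors (0.0588), the strict filter (0.0531) and both FPKM fits (0.0604 and 0.059). The whole list counted 4 without feeding replicate 1, 3 without feeding replicate 2, 5 without pre-NRC replicate 2 and 14 without pre-NRC replicate 3, in place of 9. All genes called ranged from 1166 to 3404 without 1 library, in place of 2998. With the replicate number as a block 16 of the 34 tested were called, 5 higher and 11 lower, against 36.8% of all genes, and with replicates 1 and 2 alone 17, against 42.4%.

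By role, all 4 genes listed under fission had a fitted change below 0. That of Fis1 was above 0 with upper-quartile factors, the strict filter, and replicates 1 and 2 alone. Roles were assigned for this report, and the pattern depends on them. CG4623, the Gdap1 gene, was listed under fusion and not fission. It stood at 1.21 (SE 0.69, adjusted p = 0.217 in edgeR), with means of 0.653 CPM in feeding and 1.52 in pre-NRC starvation. The gene rho-7, also listed under fusion, stood at −0.26 (SE 0.25, adjusted p = 0.472 in edgeR). Tango11, the homologue of the Drp1 receptor Mff, stood at −0.34 (SE 0.16, adjusted p = 0.149), and CG7772 at −1.16 (SE 0.44, adjusted p = 0.0799). Thus 0 of the 4 genes listed under fission passed in edgeR, with a median of −0.45. In the mitophagy group of 6, 2 rose (Pink1 and CG5059). Pgam5, a mitochondrial phosphatase, stood at −0.41 (SE 0.30, adjusted p = 0.326), and clu, a cytosolic regulator of mitochondria, stood at −1.25 (SE 0.52, adjusted p = 0.102). Among the deubiquitinases CG3016 and CG5384 fell, while CG8334 stood at 0.22 (SE 0.38, adjusted p = 0.696 in edgeR) and Ubpy at 0.14 (SE 0.19, adjusted p = 0.623). In the autophagy group 0 of 7 passed in edgeR, with a median log2 change of 0.0. Atg1, the kinase that starts autophagy, stood at 0.97 (SE 0.37, adjusted p = 0.0808), Atg9, its membrane protein, at 0.72 (SE 0.24, adjusted p = 0.0513) and the ubiquitin-like Atg8a at 0.41 (SE 0.19, adjusted p = 0.14). TER94, the segregase that draws ubiquitinated proteins from membranes, stood at −1.24 (SE 0.56, adjusted p = 0.126). The remaining genes of the group, ref(2)P, Atg5 and Atg13, stood at −0.33, −0.12 and 0.0 (adjusted p = 0.311, 0.686 and 0.998 in edgeR). All 6 genes of the inner membrane group had a fitted change below 0, with a median of −0.47, and 2 passed, Phb2 and l(2)37Cc. CG6455, the mitofilin gene of cristae junctions, stood at −0.54 (SE 0.18, adjusted p = 0.0535).

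In post-NRC starvation against feeding 0 of the 34 list genes passed in edgeR, against 0.809% of all genes. There were 7 at an unadjusted p under 0.05, against 14.8% of all genes, with 2 calls in DESeq2, against 6.83%, and 0 in limma-voom. With the block 1 passed. In post-NRC against pre-NRC starvation Marf was the only list gene called in edgeR, while DESeq2 called 5, the block 5 and replicates 1 and 2 alone 11. All genes called in this comparison also moved with the setting, from 6 to 3041 over the alternatives (565 in the reported fit). These counts are therefore not read as particular to the list.

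**Figure D5:**
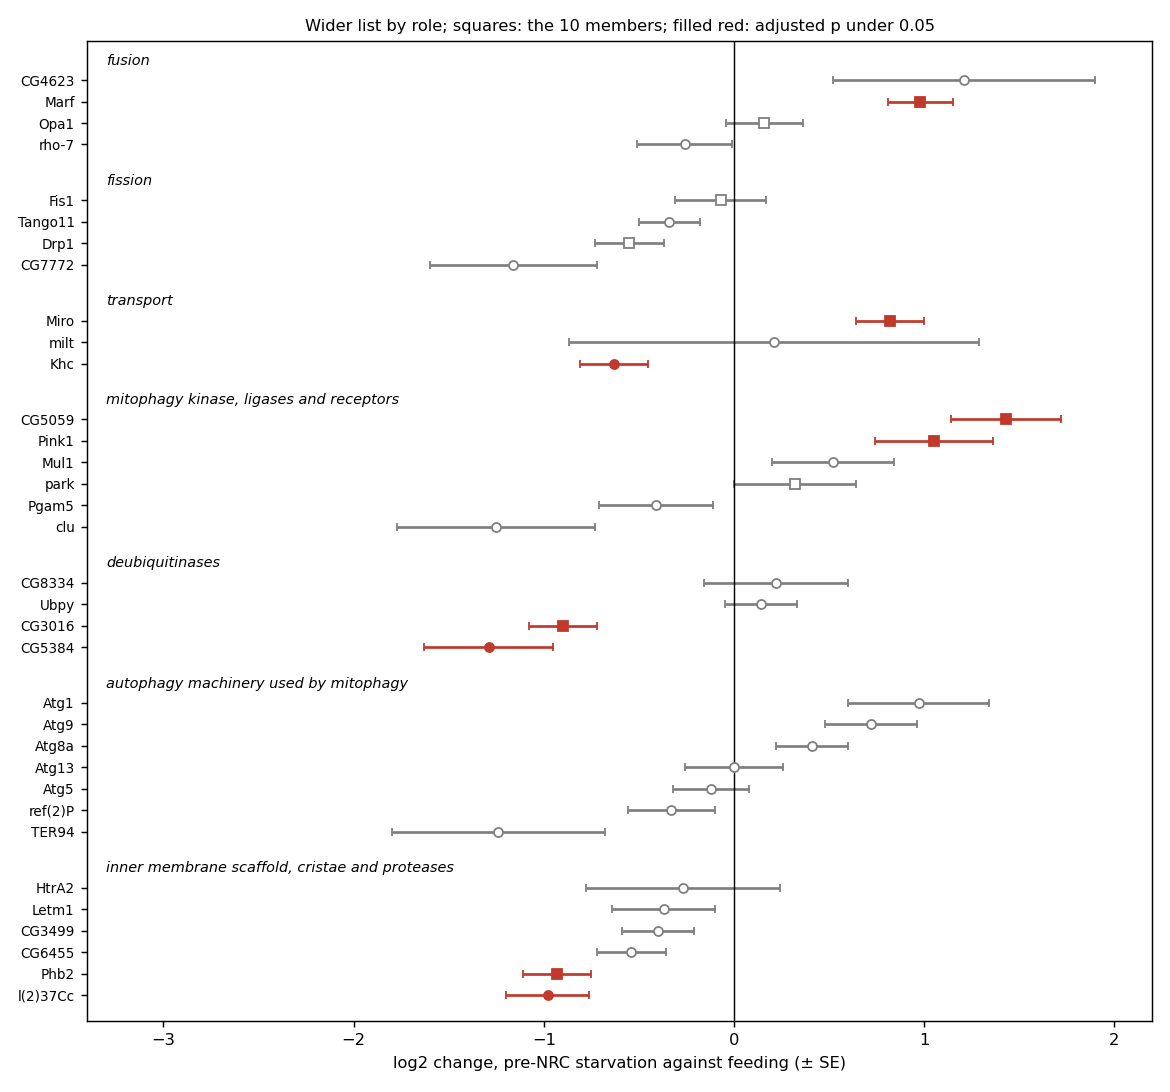
Fitted log2 changes with SE of the 34 list genes that could be tested, in pre-NRC starvation against feeding, grouped by role; squares are the 10 members and filled red points passed in edgeR. The calls are Marf, Miro, CG5059 and Pink1 on the higher side and Khc, CG3016, CG5384, Phb2 and l(2)37Cc on the lower side.

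The genes whose pattern over the 9 libraries was most like that of a member were found by Pearson's r of log2 CPM values. The 9 points share 3 groups, so that a gene with like differences between the groups can give a high r. For Marf they were kn (r = 0.984, Spearman's rank correlation 0.80), shn (0.98, rank correlation 0.767) and su(r) (0.979, rank correlation 0.70). For Drp1 they were mats (0.984), cpb (0.979) and Tudor-SN (0.967), with rank correlations of 0.917 to 0.983. For Pink1 they were psh (0.993), DptB (0.991) and PK2-R1 (0.99), with rank correlations of 0.983 in all, and for Phb2 they were Sptr (0.99, rank correlation 1.00), Hsp67Bb (0.987, 0.983 by rank) and FeCH (0.985, 0.983 by rank). PK2-R1 had mean levels of 193, 1241 and 422 CPM in feeding, pre-NRC and post-NRC starvation. FeCH had 219.6, 78.5 and 135 CPM in that order.

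Positions were taken from the BDGP6.54 annotation, and the submitters' processing notes name BDGP6. Marf (FBgn0029870, plus strand) lies on X from 6365949 to 6370924, Pink1 (FBgn0029891, plus strand) on X from 6683798 to 6687302 and CG3016 (FBgn0029819, minus strand) on X from 5877000 to 5879787. CG5059 (FBgn0037007, minus strand) lies on 3L from 20514598 to 20519393, park (FBgn0041100, minus strand) on 3L from 21194754 to 21196853, Miro (FBgn0039140, minus strand) on 3R from 24034362 to 24038847 and Drp1 (FBgn0026479, minus strand) on 2L from 2581281 to 2585430. Opa1, Fis1 and Phb2 lie on 2R. Exonic lengths run from 928 bases in Fis1 to 3968 bases in Opa1.

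Of these genes, 7 overlap an exon of another gene on the opposite strand. The libraries were made with a directional kit, per the labels' protocols, but the strand setting of the counting is not given in the sources used here. In Marf the overlap covers 347 bases of the 3′ UTR (9.59% of its exonic bases), with a long noncoding RNA. In Pink1 it covers 340 bases of the 3′ UTR (10.5%, with CG44303), and in Miro 633 bases of the 5′ UTR (16.7%, with spas). The partner spas did not pass in pre-NRC starvation against feeding (log2 change −0.16, adjusted p = 0.841), nor did CG44303 (−0.84, adjusted p = 0.685). Drp1 shares 143 bases of its 3′ UTR (4.99%) with Arpc5, which fell in the same comparison (−1.09, adjusted p = 0.0272 in edgeR). In park an antisense RNA covers 63.8% of the exonic bases, 980 of them coding, so its counts are the least certain of the 10. CG5059, CG3016 and Fis1 overlap no other exon.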

How the data were processed

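Per the file headers, the deposited table gives a whole-number count and an FPKM value per gene and library, both computed by the authors. The submitters' processing notes name BDGP6 with the programs HISAT2, StringTie, Bowtie and Cufflinks, whose roles are, like the counting tool, not given in the sources used here. Columns headed as wild type were taken as feeding, the only group without a starvation term.

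Genes were filtered with filterByExpr, scaled by TMM and tested with the quasi-likelihood test of edgeR 4.0.16 on all 9 libraries, 1 coefficient per group, two-sided, at an adjusted p of 0.05. The SE was derived from the fitted change and its statistic. CPM used scaled library sizes, and log2 CPM a prior count of 2. The common biological coefficient of variation was 50.6%, and 20.9% to 34.2% in the 10 genes. The fit was tested on simulated data. DESeq2 1.42.0, limma 3.58.1, other scalings, filters and thresholds, log2(FPKM + 1), log2(FPKM + 0.1), left-out libraries, the replicate block and replicates 1 and 2 alone (chosen after seeing the data) were alternatives. p-values measure the spread between pools. Feeding replicates 1 and 2 lay close in markers such as Sgs3 (713 and 733 FPKM, against 69.7 in replicate 3) and Lsp1beta (85.8 and 90.1, against 282). They lay apart in Akh (655 and 7010 FPKM). Both are labelled biological replicates, and summing their counts into 1 library was a further alternative. If they were not independent pools, the feeding spread would be understated, which was not tested.

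Deviations from the group means correlated between same-numbered libraries at 0.1165 to 0.3018 for pre-NRC starvation with feeding and 0.1192 to 0.2966 for post-NRC starvation with feeding. In both comparisons all 3 values exceeded 0.1, so the numbers were used as a block in an alternative fit, from the data and not the labels. The reported fit has no replicate term. Unlike numbers among replicates 1 and 2 correlated similarly, at up to 0.1251, so the numbers set replicate 3 apart and do not separate replicates 1 and 2.

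Members and lists were chosen with earlier results of these data known. All members are named, with the called genes of the list and up to 2 others per role by mean count. A few more were chosen after their values were seen (the other autophagy genes, CG4623 and genes that overlap a member). Of the 35 list genes, 31 matched a symbol of the table, 3 a current symbol and 1 a synonym.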

Additional observations from a re-analysis of the deposited data

Results flagged for a closer look

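The change of Marf against feeding differed between the starved groups, with a log2 difference of −1.04 (post-NRC minus pre-NRC starvation, SE 0.17, adjusted p = 0.0291 in edgeR). Larval age and the response to starvation cannot be told apart in this difference. All 3 pre-NRC libraries were above all 3 post-NRC libraries. What else moved with it, the muscle markers, is given beside the result, and their part in it was not tested.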

How the results depend on the processing

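Marf, CG5059 and Phb2 kept their calls in pre-NRC starvation against feeding under every alternative run at the 0.05 threshold. The number of members called there was 6, with 2 at a threshold of 0.01 and 3 to 7 without 1 library. For the list of 35 it was 9, with 14 in DESeq2, 16 with the replicate block, 17 with replicates 1 and 2 only, 4 with feeding replicates 1 and 2 summed, 2 at 0.01, 14 at 0.10, and 3 to 14 without 1 library. In post-NRC starvation against feeding the members called went from 0 to 2 in DESeq2 and 2 with replicates 1 and 2 only, and were 0 to 1 without 1 library. The list went from 0 to 2, 3 and, with the replicate block, 1, and was 0 to 1 without 1 library. In post-NRC against pre-NRC starvation the members called went from 1 to 2 in DESeq2, 3 with the replicate block, 4 with replicates 1 and 2 only and 2 at 0.10. They fell to 0 with only the 2 groups compared, with feeding replicates summed and at 0.01, and were 0 to 2 without 1 library. The list went from 1 to 5, 5, 11 and 5, and to 0, under the same settings, and was 0 to 5 without 1 library. Calls over all genes moved with the settings too, as given below, so these counts are not read as particular to the members or the list. In pre-NRC starvation against feeding 36.8% of all genes were called with the block and 42.4% with replicates 1 and 2 only. DESeq2 called 6.83% in post-NRC starvation against feeding. With replicates 1 and 2 only, 12.6% were called lower in post-NRC against pre-NRC starvation. The causes were not tested. In that last comparison same-numbered libraries correlated at 0.0998 to 0.3648, and unlike numbers at up to 0.2337. The block gave calls there for Miro (adjusted p = 0.0431) and Pink1 (0.0464) in edgeR. The block changed no other member's call than those given.

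Signs turned only for genes without a call. Fis1 in pre-NRC starvation against feeding stood at 0.028 with upper-quartile factors, 0.0056 with the strict filter and 0.0072 with replicates 1 and 2 only, and at −0.31 to 0.046 without 1 library. Marf in post-NRC starvation against feeding stood at 0.021 with upper-quartile factors. Opa1 there stood at 0.015 with RLE factors, 0.076 with upper-quartile factors, 0.015 in DESeq2, 0.027 with the strict filter, 0.0078 with only the 2 groups, 0.0030 with the block and 0.0012 with feeding replicates summed, and at −0.12 to 0.10 without 1 library. Without 1 library, park ranged from −0.021 to 0.52 in pre-NRC starvation against feeding and −0.35 to 0.20 in post-NRC against pre-NRC starvation. Fis1 ranged from −0.14 to 0.21 and −0.061 to 0.37 in the comparisons with post-NRC starvation. All genes called numbered 872 to 4598 over the alternatives in pre-NRC starvation against feeding (2998 in the reported fit), 14 to 741 in post-NRC starvation against feeding (88) and 6 to 3041 in post-NRC against pre-NRC starvation (565). Ratios within a library kept their group differences with counts in place of FPKM.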

Other observations

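The adaptor gene milt, which links Miro to kinesin, varied more between pools of a group than any other list gene tested, with a biological coefficient of variation of 86.5%. It had 397, 2014 and 2237 counts in feeding replicates 1, 2 and 3, 1168, 519 and 4063 in pre-NRC and 71, 2050 and 1393 in post-NRC starvation, and it was chosen for mention after its values were seen. Miro itself varied little in the same libraries, with 1940 to 2169 counts in feeding. The testis mitofusin gene fzo had 0 to 31 counts per library and was not tested. The gene CG44303, which overlaps the end of Pink1 on the opposite strand, had 398, 464 and 0 counts in feeding replicates 1, 2 and 3 and 36 to 400 counts in the starved libraries.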
